A study of Mus musculus with 8 samples.

Results

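Set7 is a lysine methyltransferase, and these results describe what changed in Sca1 cells when its transcript was reduced by a short hairpin RNA. The comparison takes 4 of the 8 libraries of a mouse series on Set7 and the differentiation of embryonic stem cells into smooth muscle cells. It sets 2 libraries of cells that carried a Set7 shRNA (knock-down) against 2 of cells that carried the vendor's non-target shRNA (NTC). All 4 came from C57BL/6 cells at 5.5 mM glucose. Stem cells were grown on gelatin without leukaemia inhibitory factor for 4 days, and cells that carried Sca1 on their surface were then isolated with magnetic beads. The labels put the purity above 80% by flow cytometry and describe growth for 2 to 8 doublings. NTC and knock-down cells both received a lentiviral shRNA vector and puromycin at 1 µg/ml, so the controls share the virus, the vector and the selection, and differ in the shRNA sequence. A single shRNA sequence was used against Set7. The labels do not say whether the replicates are separate transductions or cultures, and if they are not, p-values measure technical spread only. The other 4 libraries, of untreated stem cells and untreated Sca1 cells, entered the estimate of the spread, and the untreated Sca1 cells served once as an alternative control.

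Set7, encoded by Setd7, places a single methyl group on lysine 4 of histone H3 and on lysines of many other proteins, among them p53, Stat3, Sox2 and Yap. Sca1, encoded by Ly6a, marks progenitor populations in several mouse tissues, and Sca1 cells from stem cell cultures can be led towards smooth muscle. Smooth muscle and other mesenchymal cells build an extracellular matrix of collagens, elastic fibres and proteoglycans, hold it through integrins, and contract it with alpha-actin and its partners. Embryonic cells also carry a Hox code along the body axis, and imprinted genes, many of them regulators of growth, that are expressed from only the maternal or only the paternal copy.

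The 21-base sequence that the shRNA targets is printed because the knock-down rests on it alone.

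Set7 shRNA target: ccgtgttcagagataccaaat

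It matched 1 annotated transcript exactly, Setd7-201, in the sense orientation, among 141767 transcripts of GENCODE vM21. The match lies in exon 8 of 8, in the 3' UTR, at chr3:51520958-51520978 on the minus strand (GRCm38). Partial matches to other transcripts were not searched.

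Setd7 itself (NM_080793), which lies on chromosome 3, stood at 60.7 and 66.6 CPM with NTC and at 14.01 and 10.8 CPM after knock-down. CPM are counts divided by the library size after scaling and multiplied by 1000000. Both knock-down libraries lay below both NTC libraries, and the mean that remained was 19.5% of the NTC mean. The fall was 2.39 ± 0.20 on the log2 scale (SE, n = 2 a group; adjusted p = 1.71e-07 by edgeR's quasi-likelihood test, Benjamini-Hochberg method). The sort marker Ly6a, on chromosome 15, stood at 5.44 and 6.46 CPM with NTC and at 9.81 and 12.5 CPM after knock-down, a difference of 0.92 ± 0.38 that did not pass (adjusted p = 0.126). Untreated stem cells had 9.85 and 5.72 CPM of it and untreated Sca1 cells 12.98 and 4.42 CPM. The NTC mean of 5.95 CPM did not exceed the stem cell mean of 7.78 CPM.

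The gene counts of the NTC replicates added up to 4079756 and 4301485, those of the knock-down to 2790736 and 4406728. Replicates within each of these groups differed little beyond counting noise, with a chi-square per degree of freedom of 1.501 for NTC and 1.993 for the knock-down. Genes of some chromosomes shifted together. Among genes whose higher group averaged 10 CPM or more, those of chromosome 15 had a median log2 change of 0.415, with 84.2% of 443 genes above 0. Those of chromosome 6 had a median of -0.172, with 25.0% of 496 genes above 0. Over 10 consecutive stretches of chromosome 15 with near-equal gene numbers, the median lay between 0.279 and 0.565. Chromosome 15 gave 4.35% and 4.32% of counts with NTC, 5.80% and 5.79% with the Set7 shRNA, and 3.95% to 4.74% in the other 4 libraries. Chromosome 6 gave 5.92% and 5.95% against 5.19% and 5.27%, with 4.80% to 5.61% in the other 4. Chromosome Y gave 0.0124% and 0.0138% of counts with NTC, 0.00197% and 0.00303% in the knock-down and 0.0132% to 0.0168% in the other 4. Of 5 Y-linked genes tested 4 fell, Eif2s3y from 60.98 and 59.96 to 8.41 and 12.3 CPM, Ddx3y from 29.8 and 35.7 to 6.304 and 9.45 CPM, Uty from 21.3 and 26.3 to 3.15 and 4.396 CPM and Zfy1 from 4.02 and 6.02 to 0 and 1.099 CPM. Against NTC, these shifts run with the knock-down in both replicates. For chromosome 6, the knock-down shares lay within the range of the other 4 libraries and the NTC shares above it. The shifts cannot be told apart from the effect of the shRNA by this design. The chromosome is given with the genes of chromosomes 15 and 6 that are named below.

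**Figure D1:**
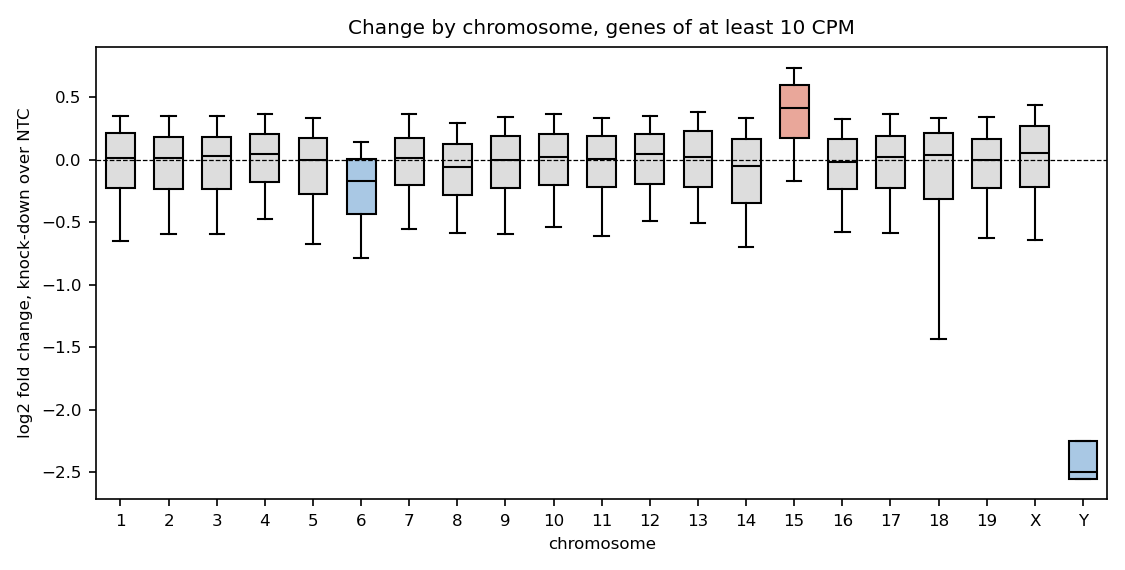
Log2 fold change of knock-down over NTC by chromosome, for genes whose higher group averaged 10 CPM or more. Boxes span the quartiles with the median as a line and whiskers span the 10th to the 90th percentile; chromosome 15 lies above 0 (median 0.415), chromosome 6 below it (median -0.172), and Y rests on 3 genes.

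Of 13966 genes tested, 594 (4.25%) were higher and 1404 (10.1%) were lower in the knock-down at an adjusted p of 0.05, or 14.3% in either direction. Falls were larger than rises. Over 2-fold, 113 genes (0.809%) were higher and 796 (5.7%) lower, and over 8-fold 1 gene was higher and 113 were lower. The median called rise was 0.633 and the median called fall -1.14 on the log2 scale, while the median over all genes was -0.000175. Of all calls 29.7% were higher, and with library totals as the only scaling 18.3% were (259 higher and 1154 lower). In every called gene the NTC and the knock-down libraries did not overlap, as in 64% of all genes tested. Outside chromosomes 15, 6 and Y there were 413 higher and 1265 lower genes among 12763 (3.24% and 9.91%). On chromosome 15 itself, 177 of 543 tested genes were higher. Calls were fewer when a library was left out, at 113 higher and 708 lower if this was the first NTC replicate, 135 and 769 if the second. For the knock-down, omitting replicate 1 left 163 and 727 calls and omitting replicate 2 left 111 and 537. Leaving out a stem cell library raised the higher calls to 1034 or 1030. In all 4 fits that left out an NTC or knock-down library 69 of the higher and 477 of the lower genes passed. The lower genes include 22 protocadherin gamma genes, every one tested, at changes of -1.66 to -1.48. They share their 3' exons and were singled out after their values were seen, and because of the shared exons their counts cannot be told apart. Without them 1382 lower genes remain. The fall of Setd7 was exceeded by 207 falls and 6 rises, and by 78 falls and no rise among genes whose higher group averaged 20 CPM or more.

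**Figure D2:**
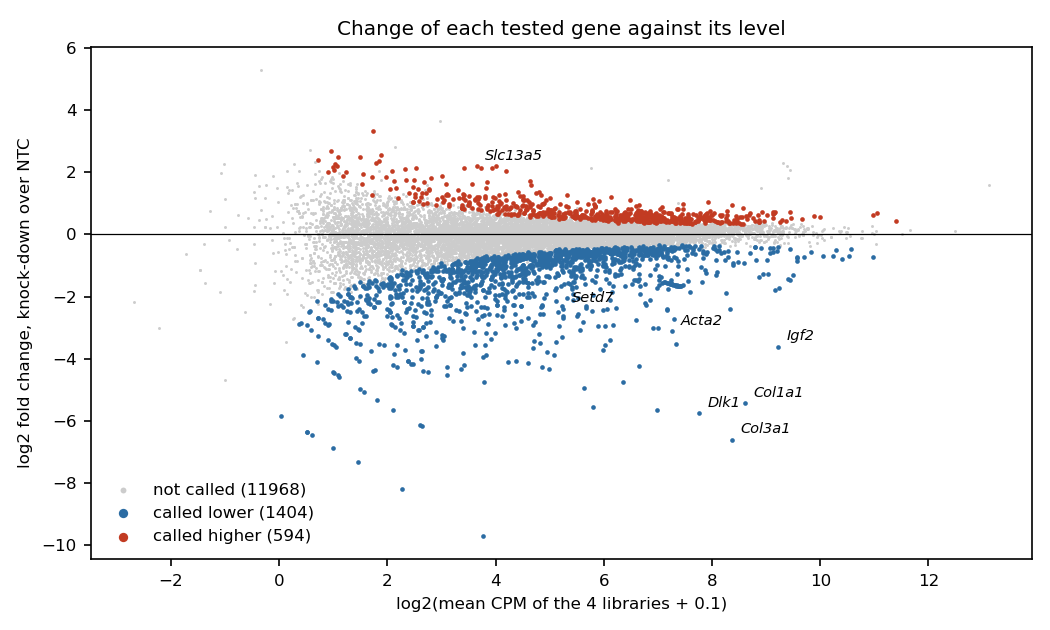
Log2 fold change of knock-down over NTC for each of 13966 tested genes (vertical) against its level, log2 of the mean CPM of the 4 libraries plus 0.1 (horizontal). Blue points are the 1404 genes called lower and red points the 594 called higher; the falls of Col3a1, Dlk1 and Col1a1 reach beyond -5 while 22 rises exceed 2.

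Many extracellular matrix genes fell. The 7 lists of matrix genes together had 147 tested members, of which 101 fell and 2 rose, with a median change of -1.31. Their summed level was 24386 and 23449 CPM with NTC and 12818 and 12173 CPM in the knock-down. In the untreated Sca1 libraries it was 13950 and 14677 CPM, nearer to the knock-down than to NTC. In bulk RNA, fewer cells of a type and less RNA per cell cannot be told apart, here and in all groups below. Counts in each list below are to be read against all genes, of which 4.25% rose and 10.1% fell.

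Fibrillar collagens form the tensile fibres of connective tissue. Type I collagen is made of the Col1a1 and Col1a2 chains. Col1a1 (NM_007742, chromosome 11) stood at 788 and 739 CPM with NTC and at 23.1 and 13.6 CPM after knock-down, and Col1a2 (NM_007743, chromosome 6) at 303 and 291 CPM with NTC and at 26.6 and 24.8 CPM after knock-down. Both chains fell in both knock-down libraries, Col1a1 by 5.43 ± 0.20 (adjusted p = 5.21e-12) and Col1a2 by 3.53 ± 0.13 (adjusted p = 4.9e-12). Col3a1 (NM_009930, chromosome 1), the chain of type III collagen, stood at 656 and 659 CPM with NTC and at 6.304 and 7.03 CPM after knock-down. Its fall of 6.60 ± 0.16 left 1.01% of the NTC mean (adjusted p = 1.05e-14). Of 9 fibrillar chains tested, 6 fell, against 10.1% of all genes, and the list's median was -3.01. The other 3 were Col5a1 (-3.01) and Col5a2 (-3.02), which help to set fibre diameter, and Col11a1 (-2.69). All 6 were called in each fit that left out 1 NTC or knock-down library.

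Among network, beaded-filament and associated collagens 9 of 13 fell (median -1.90). The 3 tested chains of type VI collagen, which forms beaded filaments around cells, were all among them. Col6a1 stood at 28.1 and 24.7 against 1.05 and 0.879 CPM (here and below NTC before knock-down, replicate 1 before replicate 2). Col6a2 stood at 13.9 and 16.05 against 3.15 and 4.62 CPM. Col6a3 had 73 counts against 1 (ratio 62, 95% counting interval 10.8 to 2480.0). Col8a1 fell by 4.28 and Col14a1, which lies on chromosome 15, by 2.92.

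Basement membranes are sheets of type IV collagen, laminin, nidogen and perlecan. Here 14 of 22 members fell and none rose, with a median of -0.72. The depth of the fall differed among type IV chains. Col4a1 and Col4a2, the chains of the common network, stood at 1529 and 1469 against 949 and 892 CPM and at 1023 and 930.2 against 559 and 528 CPM. They fell by 0.70 ± 0.14 and 0.84 ± 0.15. Col4a5 and Col4a6, a pair of X-linked chains, stood at 56.7 and 58.6 against 3.502 and 4.62 CPM and at 47.03 and 47.5 against 5.604 and 3.52 CPM, falls of 3.78 ± 0.29 and 3.43 ± 0.24. Lamb1, a laminin chain, fell by 0.75, Lama4 by 3.07, the linker Nid1 by 1.49 and the proteoglycan Agrn by 0.83.

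Matricellular proteins sit in the matrix and modulate adhesion, and elastic-fibre proteins form its microfibrils. Of 30 tested, 19 fell and none rose (median -1.71), and 16 passed in every one of the 4 leave-outs. Postn, encoding periostin, was at 26.9 and 27.4 against 0 and 0 CPM. With no count in the knock-down it was at least 67.1-fold lower, taking 3 counts over the group as the floor. Tnc, encoding tenascin C, stood at 248 and 248 against 5.95 and 4.18 CPM (-5.65 ± 0.21). Fibrillins were lower too, with Fbn1 at 133 and 121 against 11.2 and 12.7 CPM and Fbn2 at 207 and 176 against 11.6 and 9.01 CPM. Fn1, encoding fibronectin, kept a larger part of its level, at 2588 and 2423 against 1647 and 1384 CPM (-0.73 ± 0.14, adjusted p = 0.0014). Tgfbi (-4.76), Ccdc80 (-4.93), Emilin1 (-3.45), Thbs1 (-2.74), Ccn4 (-3.40, chromosome 15) and Ccn1 (-1.43) fell, whereas Ccn2, a relative of Ccn1, stood at 75.4 and 76.9 against 91.1 and 86.6 CPM and did not pass (adjusted p = 0.346).

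**Figure D3:**
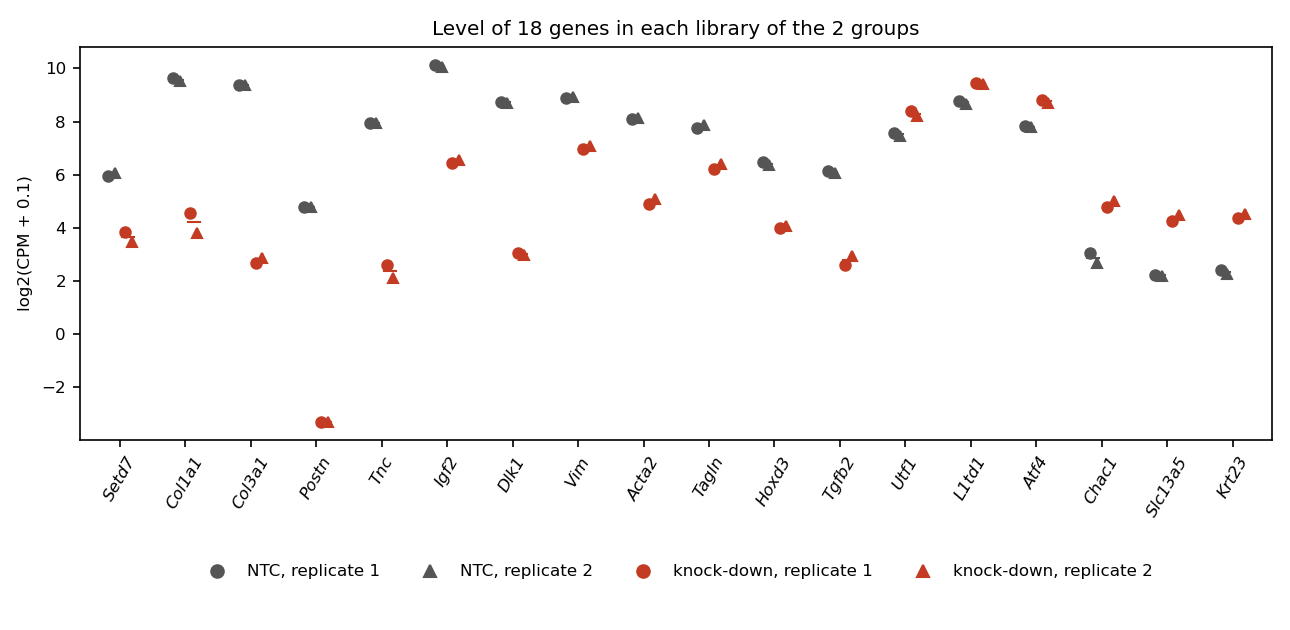
Level of 18 genes in each of the 4 libraries, as log2(CPM + 0.1), with grey for NTC and red for the knock-down; circles are replicate 1, triangles replicate 2 and short lines the group means. The 12 genes from Setd7 to Tgfb2 lie lower in both knock-down libraries, and the 6 from Utf1 to Krt23 lie higher in both.

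Proteoglycans carry sugar chains that bind growth factors and water. In that list 17 of 25 fell and 1 rose (median -0.99). Bgn, the small leucine-rich proteoglycan biglycan, stood at 81.5 and 87.4 against 8.41 and 10.99 CPM, and Vcan, the large proteoglycan versican, at 183 and 194 against 44.1 and 43.7 CPM. Cell-surface members split. The glypican Gpc3 stood at 528 and 552 against 92.8 and 109 CPM and the syndecan Sdc3 at 41.6 and 34.996 against 5.604 and 5.495 CPM, while Sdc4, the syndecan of focal adhesions, was the rise, from 104 and 103 to 148 and 166 CPM (0.61 ± 0.13).

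Genes that fold, cut and crosslink collagen also fell. In this list 18 of 24 members fell and none rose (median -1.38). Serpinh1, the collagen chaperone Hsp47, stood at 1037 and 993 CPM with NTC and at 374 and 359.6 CPM after knock-down, 36.2% of the NTC mean in the knock-down. Loxl2, a crosslinking oxidase, stood at 211 and 215 against 24.9 and 27.9 CPM. Pcolce and Bmp1, which act together to cut the C-propeptide of procollagen, stood at 120.3 and 119 against 10.5 and 9.67 CPM and at 109.7 and 105 against 20.3 and 19.12 CPM. Plod3, a lysyl hydroxylase, fell by 1.38 and the prolyl isomerase Fkbp10 by 1.92.

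Matrix proteases and their inhibitors fell in 18 of 24 cases (median -1.53), and the serine protease Htra1 rose (0.51 ± 0.14). Mmp2, a gelatinase, stood at 97.8 and 111 against 14.01 and 13.4 CPM, and Mmp14, the membrane protease that activates it, at 94.8 and 81.4 against 23.5 and 21.8 CPM. The inhibitor Timp2 fell with them, at 33.6 and 32.8 against 7.005 and 6.81 CPM. Timp1, on the X chromosome, stood at 25.5 and 23.6 against 24.9 and 29.5 CPM and did not pass (adjusted p = 0.633). Of the integrins, the receptors for matrix, 8 of 17 fell. Itgb1, the beta chain shared by most matrix receptors, stood at 678 and 674 against 252 and 273 CPM, Itgav at 102 and 104 against 32.9 and 35.8 CPM and Itga8 at 11.1 and 9.81 against 1.05 and 1.32 CPM. The 1 rise, Itgb7 (0.82 ± 0.24), lies on chromosome 15.

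Secreted matrix passes through the endoplasmic reticulum, and several of its chaperones fell. In the chaperone and secretory list 14 of 25 fell and none rose, with smaller changes (median -0.46). Hspa5, the chaperone BiP, stood at 1797 and 1857 CPM with NTC and at 1058 and 1175 CPM after knock-down (-0.71 ± 0.12, adjusted p = 0.000657). Pdia4, on chromosome 6, stood at 503 and 501 against 256 and 276 CPM, and Hyou1 fell by 0.56. Creb3l1, a membrane-bound transcription factor that activates collagen and secretory genes, stood at 25.8 and 26.7 against 5.95 and 5.93 CPM (-2.14 ± 0.24). In that list 4 of the 14 calls held in every leave-out.

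The series concerns smooth muscle differentiation, and genes of the contractile apparatus mark it. In that list 14 of 22 tested genes fell and none rose (median -0.98), 9 of them in every leave-out. The highest change in the list was 2.19, of a member that did not pass and whose unadjusted p (edgeR) was not under 0.05 either. Acta2 (NM_007392, chromosome 19), smooth muscle alpha-actin, stood at 271 and 282 CPM with NTC and at 29.4 and 33.9 CPM after knock-down. That is a fall of 3.12 ± 0.25 to 11.4% of the NTC mean (adjusted p = 8.74e-06). Tagln (NM_011526, chromosome 9), the actin-binding protein transgelin, stood at 214 and 231 CPM with NTC and at 73.5 and 85.1 CPM after knock-down, 35.6% of the NTC mean. Neither gene's groups overlapped, as in 64% of all genes tested. Cnn1, calponin, stood at 12.5 and 12.5 against 5.25 and 6.15 CPM and its call was lost in every leave-out (adjusted p up to 0.123). Myl9, a myosin light chain, stood at 53.4 and 52.6 against 17.9 and 14.3 CPM, Tpm1, a tropomyosin, at 742 and 747 against 308 and 312 CPM, and Cald1, caldesmon, on chromosome 6, at 186 and 187 against 69.3 and 77.6 CPM. The intermediate filament gene Des fell by 1.38 and Cnn2 by 0.86. The sarcomeric actins of early muscle fell as well, Actc1 from 48.5 and 55.7 to 3.15 and 5.495 CPM and Acta1 from 31.9 and 28.3 to 12.6 and 16.5 CPM.

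Serum response factor (SRF) drives many contractile genes by binding CArG boxes near their start sites, with MRTF proteins as partners. The genes for these factors did not pass the test. Srf stood at 89.8 and 73.6 against 66.5 and 65.9 CPM (-0.30 ± 0.14, adjusted p = 0.169), Mrtfa, on chromosome 15, at 46.8 and 42.4 against 50.8 and 42.6 CPM (adjusted p = 0.865) and Mrtfb at 45.9 and 42.8 against 38.2 and 40.4 CPM (adjusted p = 0.577). Of 21 genes in the list of SRF, MRTF and cytoskeletal adhesion 8 fell, among them Fhl2 (-1.81), Parva (-1.78) and Myh10 (-1.14), and Lima1, on chromosome 15, rose (0.39). A window of 250 bases before to 50 bases after the start site was available from RefSeq for 19 of the 24 contractile genes, 23 windows in all. The CArG box, searched on both strands, occurred in 5 of these 23 windows (21.7%) and in 1.63% of 32851 windows of all genes. It occurred in 1.24% of the windows of genes tested, in 1.97% of those of genes called lower and in 1.30% of those of genes called higher. The windows of Myl9 and Cnn2, both of which fell, are printed with the CArG box in capitals to show where it lies. That of Myl9 is chr2:156775214-156775513, plus strand, and that of Cnn2 is chr10:79988350-79988649, plus strand (GRCm38.p6). The box starts 161 bases before the start site of Myl9 and 56 bases before that of Cnn2.

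Myl9: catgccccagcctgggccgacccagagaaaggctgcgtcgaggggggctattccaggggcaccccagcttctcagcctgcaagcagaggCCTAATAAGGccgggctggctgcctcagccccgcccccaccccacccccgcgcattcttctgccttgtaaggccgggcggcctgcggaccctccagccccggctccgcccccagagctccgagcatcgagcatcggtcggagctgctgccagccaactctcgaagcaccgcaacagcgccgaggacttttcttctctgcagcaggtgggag

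Cnn2: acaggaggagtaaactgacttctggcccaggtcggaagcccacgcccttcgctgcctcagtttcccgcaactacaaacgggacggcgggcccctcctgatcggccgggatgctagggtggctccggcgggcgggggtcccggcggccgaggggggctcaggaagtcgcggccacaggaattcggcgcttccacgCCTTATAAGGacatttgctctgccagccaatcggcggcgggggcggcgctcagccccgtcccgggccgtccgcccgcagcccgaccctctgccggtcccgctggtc

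A match describes these letters and is no evidence of binding. The windows of Acta2 and Cnn1 held no exact match.

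Genes of mesenchymal identity fell in 18 of 26 cases (median -2.30), 15 of them in every leave-out. Vim, the intermediate filament vimentin, stood at 476 and 484 against 125 and 134 CPM (-1.89 ± 0.15, adjusted p = 6.72e-08). The cadherins of mesenchymal cells were lower, with Cdh2 at 87.4 and 82.3 against 16.5 and 17.8 CPM and Cdh11 at 59.6 and 50.6 against 2.101 and 3.297 CPM. The hyaluronan receptor Cd44 stood at 50.3 and 44.4 against 10.5 and 8.35 CPM. Prrx1, a homeobox gene of limb and connective tissue mesenchyme, had 103 counts against 1 (ratio 87.5, 95% counting interval 15.4 to 3490.0). Nt5e, the ectonucleotidase CD73, was the 1 rise (14.4 and 13.2 against 23.8 and 26.4 CPM).

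Epithelial genes moved both ways. Of 23 epithelial and keratin genes tested, 4 rose and 2 fell, where 4.25% of all genes rose and 10.1% fell, and the median was 0.04. Cdh1, encoding E-cadherin, stood at 613 and 658 against 560.4 and 576 CPM (adjusted p = 0.593) and Epcam at 166 and 168 against 166 and 174 CPM (adjusted p = 0.946). The rises were Krt23 (from 5.1997 and 4.68 to 20.3 and 22.6 CPM), the transcription factor Grhl2 (from 46.1 and 39.5 to 97.02 and 98.5 CPM, chromosome 15), the small GTPase Rab25 and the claudin Cldn4, and the falls Krt19 (from 117 and 98.97 to 52.9 and 44.4 CPM) and Dsp. Markers of other lineages were mixed or low. Of 13 blood cell markers measured, 2 had enough counts to be tested and neither passed in edgeR or DESeq2 (1 had an unadjusted p under 0.05), and Lyz2 and Adgre1 had no count in any of the 4 libraries. Of 13 endothelial genes 1 passed, Flt1, a VEGF receptor (from 134 and 121 to 15.4 and 18.02 CPM). Pecam1 stood at 82.01 and 85.1 against 90.4 and 103 CPM (adjusted p = 0.29). Neural genes fell in 6 of 13 cases, with the intermediate filament Nes at 193 and 163 against 42.7 and 35.6 CPM and the adhesion molecule Ncam1 at 37.1 and 39.5 against 9.81 and 9.01 CPM, and Tubb3 rose (0.52). Among 16 tested genes of visceral and definitive endoderm 4 fell, such as Gata4 (-0.89), and 3 rose, Amn (1.17), Apoe (0.48) and Trf (1.27). The part of a change in cell composition in these results was not tested.

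Hox genes fell in all 4 clusters. Of 32 tested, 27 fell, none rose, and each of the 32 had a fold change below 0 (median -1.96). By cluster, 6 of 9 Hoxa genes fell on chromosome 6 and 9 of 9 Hoxb genes on chromosome 11. On chromosome 15, where most genes shifted upward, 6 of 7 Hoxc genes fell, and on chromosome 2 6 of 7 Hoxd genes fell. Cluster medians lay between -2.29 (Hoxd) and -1.72 (Hoxa). The summed level of the tested Hoxc genes was 86.0 and 81.1 CPM with NTC and at most 26.6 CPM in either knock-down library. Hoxd3 stood at 88.9 and 81.4 CPM with NTC and at 15.8 and 16.7 CPM after knock-down (-2.38 ± 0.18, adjusted p = 3.04e-08). Its neighbour Hoxd4 stood at 52.7 and 43.02 against 9.81 and 9.67 CPM, Hoxa3 at 54.1 and 57.5 against 15.1 and 10.99 CPM, Hoxb3 at 25.3 and 28.1 against 5.95 and 5.28 CPM and Hoxc10 at 17.02 and 19.4 against 3.85 and 2.64 CPM. Hoxb1, from the 3' end of its cluster, fell from 34.98 and 28.3 to 12.3 and 14.7 CPM. Of the 27 calls 12 held in every leave-out.

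**Figure D4:**
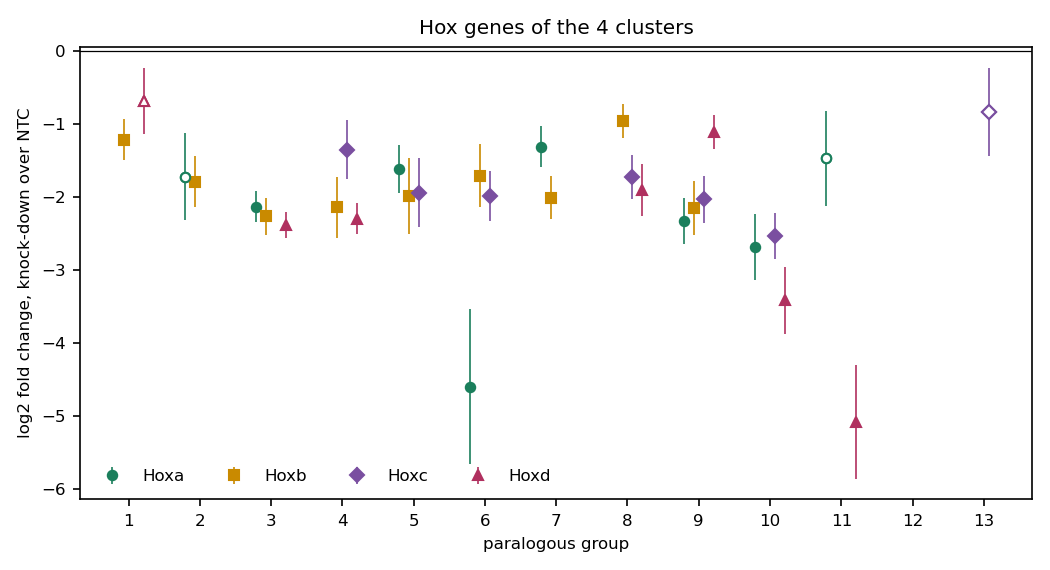
Log2 fold change of knock-down over NTC (vertical, bars show SE) for 31 of the tested Hox genes by paralogous group (horizontal), one symbol per cluster; open symbols did not pass the test. Every point lies below 0, in all 4 clusters.

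Hox regulators and cofactors moved both ways. The Cdx factors activate Hox genes, and Meis and Pbx proteins bind DNA with them. Cdx2 stood at 75.9 and 76.5 against 79.2 and 73.4 CPM (adjusted p = 0.997), and Cdx1 rose, from 54.6 and 54.8 to 80.6 and 78.5 CPM (0.54 ± 0.15). Meis1 fell, from 20.3 and 23.2 to 2.101 and 2.64 CPM (-3.15 ± 0.34), and so did Meis2 (-1.56). Genes of retinoic acid, which also patterns Hox expression, were among the falls. The retinoid-degrading enzyme Cyp26a1 stood at 65.9 and 63.3 against 14.7 and 16.3 CPM, and the binding proteins Crabp1 (-1.85) and Crabp2 (-1.58) fell. In all 9 of 21 fell and 2 rose.

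Among 31 imprinted genes, 18 fell with no rise (median -0.94), 13 of them in every leave-out. Both maternally and paternally expressed genes were among them. Of the paternally expressed genes, Dlk1, a membrane protein related to Notch ligands, stood at 429 and 420.2 CPM with NTC and at 8.06 and 7.69 CPM after knock-down, or 1.85% of the NTC mean. Igf2, the fetal insulin-like growth factor, stood at 1126 and 1078 CPM with NTC and at 86.9 and 92.8 CPM after knock-down (-3.62 ± 0.23, adjusted p = 5.71e-07). Peg3 stood at 972 and 811 against 267 and 252 CPM and Mest, on chromosome 6, at 909.9 and 949 against 276 and 292 CPM. Of the maternally expressed genes, the non-coding RNA Meg3 of the Dlk1 domain stood at 1077 and 981 against 450.4 and 382 CPM, the receptor Igf2r, which clears Igf2, at 706 and 687 against 292 and 279.6 CPM, and the cell cycle inhibitor Cdkn1c at 54.6 and 49.7 against 26.97 and 26.2 CPM. Peg10, on chromosome 6, stood at 2289.7 and 2326 against 1786 and 1971 CPM and did not pass (adjusted p = 0.14).

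In the insulin-like growth factor axis 9 of 14 members fell, with Igf2 and Igf2r among them, and the 1 rise was Htra1, a protease of binding proteins that is named above. The binding proteins Igfbp4 and Igfbp5 stood at 190.5 and 195 against 57.1 and 60.4 CPM and at 48.5 and 43.7 against 6.65 and 6.37 CPM. Igfbp7 fell by 2.43. The adaptor Irs1 stood at 23.6 and 21.4 against 4.203 and 6.59 CPM and the receptor Igf1r at 130.2 and 126 against 80.2 and 81.3 CPM, a fall of 0.66 ± 0.16 that was lost in every leave-out (adjusted p up to 0.116).

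Receptors and ligands that act on mesenchyme were among the falls. Platelet-derived growth factor signals through Pdgfra and Pdgfrb, and the labels name it as the agent of smooth muscle differentiation. Pdgfrb stood at 68.3 and 55.9 CPM with NTC and at 12.96 and 12.3 CPM after knock-down (-2.30 ± 0.26, adjusted p = 7.02e-06). Pdgfra stood at 164 and 175 against 101 and 104 CPM, a smaller fall of 0.72 ± 0.12. The ligand Pdgfc stood at 33.8 and 39.2 against 7.005 and 7.69 CPM. The semaphorin and VEGF co-receptors Nrp1 and Nrp2 stood at 55.5 and 45.03 against 4.55 and 5.93 CPM and at 197 and 186 against 68.3 and 68.4 CPM. In all 11 of 18 genes of the PDGF and VEGF families fell and none rose (median -0.96).

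In the TGF-beta list 10 of 29 fell and 2 rose, and the median stayed near that of all genes, at -0.10. All 3 TGF-beta ligands fell. Tgfb2 stood at 70.2 and 65.98 against 5.95 and 7.47 CPM (-3.31 ± 0.24, adjusted p = 2.45e-08), Tgfb1 at 13.9 and 12.7 against 5.95 and 6.59 CPM and Tgfb3 at 6.15 and 7.36 against 1.05 and 1.32 CPM. Ltbp1, which holds the latent ligand in the matrix, stood at 106 and 118 against 21.4 and 20.9 CPM. The rises were the Nodal antagonist Lefty2 (0.49) and Klf10 (0.56, chromosome 15). In the BMP list 16 of 26 fell and 1 rose (median -0.90). The ligand Bmp4 stood at 109.7 and 101 against 68.3 and 52.8 CPM, its antagonist Nog at 9.22 and 10.03 against 1.05 and 1.54 CPM, and the target genes Id2 and Id3 at 42.1 and 40.6 against 12.3 and 9.01 CPM and at 94.3 and 78.02 against 45.5 and 43.1 CPM. Id1 fell by 0.99, Msx1 by 1.24 and Msx2 by 1.33, while Id4 rose, from 4.25 and 5.57 to 11.6 and 12.1 CPM. Hand2, a mesodermal factor in that list, had 58 counts against 1 (ratio 49.3, 95% counting interval 8.5 to 1980.0).

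Wnt genes fell in 19 of 46 cases and 1, Cdx1, rose (median -0.61). The ligand Wnt5a stood at 46.1 and 50.4 against 11.9 and 13.2 CPM, and the receptors Fzd1 and Fzd2 at 21.7 and 23.4 against 1.75 and 1.98 CPM and at 142 and 135 against 46.6 and 44.4 CPM. Of the feedback genes of this pathway, Nkd1 stood at 74.7 and 68.4 against 28.7 and 25.7 CPM and Notum at 133 and 120.4 against 60.9 and 55.8 CPM, but Axin2 stood at 190.5 and 160.3 against 201 and 179 CPM and did not pass (adjusted p = 0.632). For Notch 5 of 19 fell, among them the receptors Notch2 (-0.79) and Notch3 (-0.82). In the Hedgehog list 7 of 13 fell. The transducer Smo, on chromosome 6, stood at 67.6 and 69.1 against 20.7 and 21.8 CPM, and the co-receptors Gas1 and Boc at 38.8 and 32.1 against 1.75 and 2.198 CPM and at 18.4 and 18.9 against 2.101 and 2.42 CPM. The target genes Gli1 and Ptch1 did not pass (adjusted p = 0.195 and 0.288). FGF genes were mixed, with 3 of 25 lower (Fgfr4, Fgfrl1 and Spry1) and 2 higher, the ERK-responsive factors Etv4 (from 156 and 153 to 212 and 207 CPM) and Etv5 (from 152 and 149 to 193 and 201 CPM). Over all genes 10.1% were lower and 4.25% higher, so these counts lie near those shares.

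Guidance and adhesion families held many falls. Of 40 semaphorin, plexin, Slit, Robo and netrin genes 22 fell (median -0.90), 12 of them in every leave-out. Robo2 stood at 29.1 and 28.1 against 3.502 and 2.86 CPM, Unc5b, a netrin receptor, at 341 and 331 against 118 and 114 CPM, and Sema3a at 11.8 and 16.7 against 2.45 and 0.659 CPM, while the ligand Ntn1 rose, from 70.2 and 80.2 to 119.8 and 111 CPM. The giant cadherins Fat3 and Fat4 and their partner Dchs1 stood at 25.998 and 24.96 against 2.45 and 3.08 CPM, at 17.3 and 15.4 against 0.35 and 0.879 CPM and at 63.6 and 56.8 against 3.502 and 2.64 CPM. Fat1 fell by 0.54 only, and its call was lost in every leave-out (adjusted p up to 0.317). The protocadherins Pcdh7 and Pcdh18 stood at 60.98 and 66.6 against 9.46 and 7.47 CPM and at 85.6 and 86.7 against 10.5 and 13.4 CPM. Of 22 genes of the YAP and TEAD pathway 11 fell, such as Ccn1, the receptor kinase Axl (-1.89) and tissue factor, F3 (-1.43), and none rose. Of 18 chemokine and cytokine genes 7 fell, 3 of them on chromosome 6, including Cxcl12 (from 55.8 and 58.8 to 21.4 and 17.1 CPM) and Ptn (from 25.1 and 28.5 to 4.903 and 5.93 CPM). Off that chromosome Mdk, a relative of Ptn, stood at 461 and 464 against 261 and 239.8 CPM. Hmga2, a chromatin protein of embryonic mesenchyme, stood at 162 and 164 against 56.04 and 51.9 CPM (-1.60 ± 0.16), and Ccnd2, a cyclin on chromosome 6, at 129 and 123 against 23.1 and 25.3 CPM (-2.37 ± 0.27).

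A few pluripotency genes rose, by less than the matrix genes fell. In that list 6 of 36 rose, against 4.25% of all genes, 1 fell and 29 did not pass (median 0.28). None of the rises lies on chromosome 15. The summed level of the list was 8660 and 8527 CPM with NTC and 10622 and 10354 CPM in the knock-down. In untreated stem cells it was 13405 and 12522 CPM. Pou5f1, encoding Oct4, stood at 548 and 542 CPM with NTC and at 697 and 665 CPM after knock-down (0.32 ± 0.15), and Nanog, on chromosome 6, at 190.0 and 206 CPM with NTC and at 246 and 253 CPM after knock-down (0.33 ± 0.12). Neither passed in edgeR (adjusted p = 0.175 and 0.0781). In both genes the knock-down libraries lay above the NTC libraries, but the groups did not overlap in 64% of all genes tested. Untreated stem cells had Pou5f1 at 844 and 575 CPM and Nanog at 193 and 196 CPM. Sox2, their partner, stood at 312 and 269.9 against 423 and 385 CPM (0.48 ± 0.13, adjusted p = 0.017). Utf1, a chromatin-associated stem cell gene, stood at 192 and 177 against 334 and 292 CPM and L1td1, an RNA-binding gene, at 439 and 407 against 699 and 686 CPM, and these were the 2 rises called in every leave-out. Klf2, Dppa4 and Alpl rose by 0.44, 0.48 and 0.44. The exception was Stat3, the effector of leukaemia inhibitory factor, which fell, from 96.9 and 91.2 to 60.9 and 46.2 CPM.

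Of 31 germline and 2-cell genes 9 rose and 4 fell, where 4.25% of all genes rose and 10.1% fell. The share that fell lies near that over all genes. Rises included the piRNA pathway gene Tdrd12 (from 70.2 and 67.8 to 128 and 136 CPM), the deubiquitinase Usp26 (from 12.1 and 11.4 to 30.1 and 45.9 CPM), the testis protease Prss50 (from 5.67 and 7.802 to 23.1 and 20.7 CPM) and the germ cell factor Prdm1 (from 17.5 and 16.7 to 26.97 and 37.4 CPM). The meiotic genes Sycp1 and Hormad2 rose by 0.89 and 0.98. The 4 falls were those of the 2-cell genes Zscan4c (from 5.44 and 3.79 to 1.401 and 1.54 CPM), Zscan4d (from 12.1 and 10.03 to 3.15 and 3.297 CPM) and Tcstv1 (from 7.33 and 10.03 to 1.75 and 2.42 CPM), and of the oocyte gene Khdc3. Zscan4 and Tcstv1 belong to families of near-identical copies, so reads may be split among them. Genes of the primed epiblast were mixed, with Otx2 at 18.9 and 19.4 against 19.6 and 23.96 CPM (adjusted p = 0.63). In the primitive streak list 5 of 16 fell, among them Hand1 (from 7.7995 and 6.46 to 1.75 and 0.659 CPM) and Foxc1 (from 8.04 and 6.69 to 1.05 and 0.879 CPM), and Eomes rose (from 9.69 and 12.04 to 18.2 and 26.8 CPM). T, encoding brachyury, did not pass (adjusted p = 0.505).

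Several genes of amino acid stress rose. Atf4 is the transcription factor of this response, and it induces amino acid synthesis and transport genes. Atf4 lies on chromosome 15 and stood at 226 and 223 CPM with NTC and at 453 and 418 CPM after knock-down (0.96 ± 0.17, adjusted p = 0.00124), a larger rise than that chromosome's median. Of 33 members 9 rose, 8 of them off chromosome 15, and Vldlr fell (median 0.24). Chac1, a glutathione-degrading enzyme, stood at 8.04 and 6.24 against 26.97 and 31.9 CPM, Trib3, a pseudokinase that dampens the response, at 16.8 and 16.7 against 37.8 and 42.4 CPM, and Cth, of cysteine synthesis, at 41.6 and 37.9 against 68.6 and 80.9 CPM. Nupr1 stood at 7.56 and 7.13 against 21.01 and 20.7 CPM, Gpt2 rose by 0.67 and Ddit4 by 0.64. Ddit3, the factor Chop, stood at 45.1 and 46.6 against 51.5 and 37.4 CPM and did not pass (adjusted p = 0.874). In this list 3 rises were called in every leave-out.

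Nutrient transporters rose in 9 of 27 cases, 6 of them off chromosome 15, and Slc38a4, on chromosome 15, fell (median 0.19). Slc13a5, the citrate transporter, stood at 4.49 and 4.46 CPM with NTC and at 18.9 and 21.98 CPM after knock-down (2.20 ± 0.26, adjusted p = 1.2e-05). The nucleoside transporter Slc29a1 stood at 368 and 357 against 596 and 609 CPM, the iron exporter Slc40a1 at 26.9 and 28.1 against 49.03 and 53.6 CPM and the neutral amino acid transporter Slc1a4 at 64.05 and 73.3 against 108 and 103 CPM. The glucose transporter Slc2a1 stood at 553 and 528 against 474 and 443 CPM and did not pass (adjusted p = 0.249). Of 25 redox genes 3 rose and 3 fell, where 4.25% of all genes rose and 10.1% fell. The rises were Gstm1 (from 35.9 and 33.9 to 70.7 and 67.04 CPM), Cat and Sod2. The falls were the glutathione peroxidases Gpx3 (from 61.9 and 63.97 to 24.9 and 33.6 CPM), Gpx7 and Gpx8.

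Chromatin lists differed. None of the other 19 H3K4 methylation enzymes tested passed in edgeR or in DESeq2, and 2 had an unadjusted p under 0.05. Kmt2a stood at 141 and 137 against 135 and 136 CPM (adjusted p = 0.928). In the Polycomb and DNA methylation list 4 of 21 rose and 2 fell, where 4.25% of all genes rose and 10.1% fell. The Polycomb core genes Eed and Suz12 rose, from 167 and 169 to 207 and 229 CPM and from 275 and 294 to 372 and 409 CPM, by less than 1.5-fold, while the methyltransferase gene Ezh2, on chromosome 6, stood at 185 and 173 against 189 and 181 CPM (adjusted p = 0.84). Cbx7 (chromosome 15) and Dnmt3l were the other rises, at 0.60 and 0.50. All 4 of these calls were lost in every leave-out, with adjusted p up to 0.350. The H3K27 demethylase Kdm6b fell, from 69.7 and 54.6 to 22.8 and 18.7 CPM (-1.60 ± 0.18), as did the 5-methylcytosine oxidase Tet3, on chromosome 6 (from 43.7 and 55.7 to 17.9 and 20.003 CPM), and both passed in every leave-out.

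Genes for proteins that Set7 methylates or binds were tested as their own list of 22. Here 3 fell, Trp53 (from 278 and 263 to 186 and 186 CPM), Stat3 and Suv39h1 (from 122 and 117 to 87.6 and 84.2 CPM), and 2 rose, Sox2 and Sirt1 (from 77.5 and 93.2 to 110.0 and 119 CPM), with a median of 0.02. These counts lie near the shares over all genes (10.1% lower and 4.25% higher). None of the 5 was called in every leave-out. Dnmt1 stood at 466 and 458 against 424 and 409.7 CPM and Rela at 39.5 and 42.4 against 35.02 and 36.9 CPM, and neither passed (adjusted p = 0.447 and 0.532). Transcript levels say nothing of protein methylation, which was not measured here.

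Lists of proliferation and central metabolism are read against all genes, of which 4.25% rose and 10.1% fell. No member of the mitosis list passed in either direction (22 tested, median 0.13), with Mki67 at 410.1 and 331 against 327 and 303 CPM and Top2a at 597 and 608 against 702 and 734 CPM (adjusted p = 0.331 and 0.195). Neither edgeR nor DESeq2 called a mitosis gene, and 2 had an unadjusted p under 0.05. Of 26 DNA replication genes 3 rose, Mcm4 (0.37), Cdc6 (0.48) and Dscc1 (0.58, chromosome 15). Of 24 glycolysis genes 1 rose, Pfkm, on chromosome 15. Of 31 respiratory chain genes 3 rose, Cox7a1 and, on chromosome 15, Cyc1 and Cox6c. Of 31 ribosomal and translation genes 4 rose, Ncl (0.42) and, on chromosome 15, Rpl3, Rpl8 and Rpl30, and Eif4a1 fell (-0.44). Of 26 cholesterol genes 1 rose, Sqle on chromosome 15, and 1 fell. In the hypoxia list 4 of 16 fell and 1 rose, and Epas1, a hypoxia-inducible factor of vascular cells, stood at 65.9 and 69.99 against 16.1 and 19.3 CPM (-1.92 ± 0.17, adjusted p = 3.84e-07).

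Single genes with large changes included several outside these families. The complement-related protease Masp1 stood at 19.9 and 20.5 against 0 and 1.76 CPM, the endosialin gene Cd248 at 44.2 and 47.3 against 3.502 and 1.98 CPM, the homeobox gene Pitx1 at 65.5 and 59.96 against 6.65 and 2.64 CPM, and Adgra2, an adhesion receptor, at 128 and 106 against 9.11 and 8.79 CPM. Scarf2, Tmem119, Tril (chromosome 6) and Flrt2 each fell by more than 8-fold, at -4.07, -3.87, -3.66 and -3.57. Rises of this kind were smaller and from low levels. Psors1c2 stood at 4.49 and 6.91 against 26.97 and 25.7 CPM, the POU factor Pou2f3 at 5.91 and 5.35 against 25.9 and 23.7 CPM, the haematopoietic factor Myb at 12.8 and 12.5 against 37.1 and 38.03 CPM and the lipase Liph at 12.8 and 17.8 against 36.8 and 40.2 CPM. The RNA-binding gene Rbm47 stood at 21.3 and 24.96 against 57.4 and 54.95 CPM and the myosin gene Myo7a at 12.999 and 12.9 against 30.5 and 30.99 CPM. On chromosome 15, Tst (1.37), Them6 (1.35), Dmc1 (1.22) and Pop1 (1.10) were among the 30 largest rises, above the chromosome's median of 0.415.

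Many lists had calls in 1 direction alone. Over the 25 lists with no member called higher by edgeR, 14 of 437 tested genes were higher at an unadjusted p under 0.05, and DESeq2 called 1 higher. Over the 5 lists with no member called lower, 3 of 105 genes were lower at an unadjusted p under 0.05, and DESeq2 called none.

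**Figure D5:**
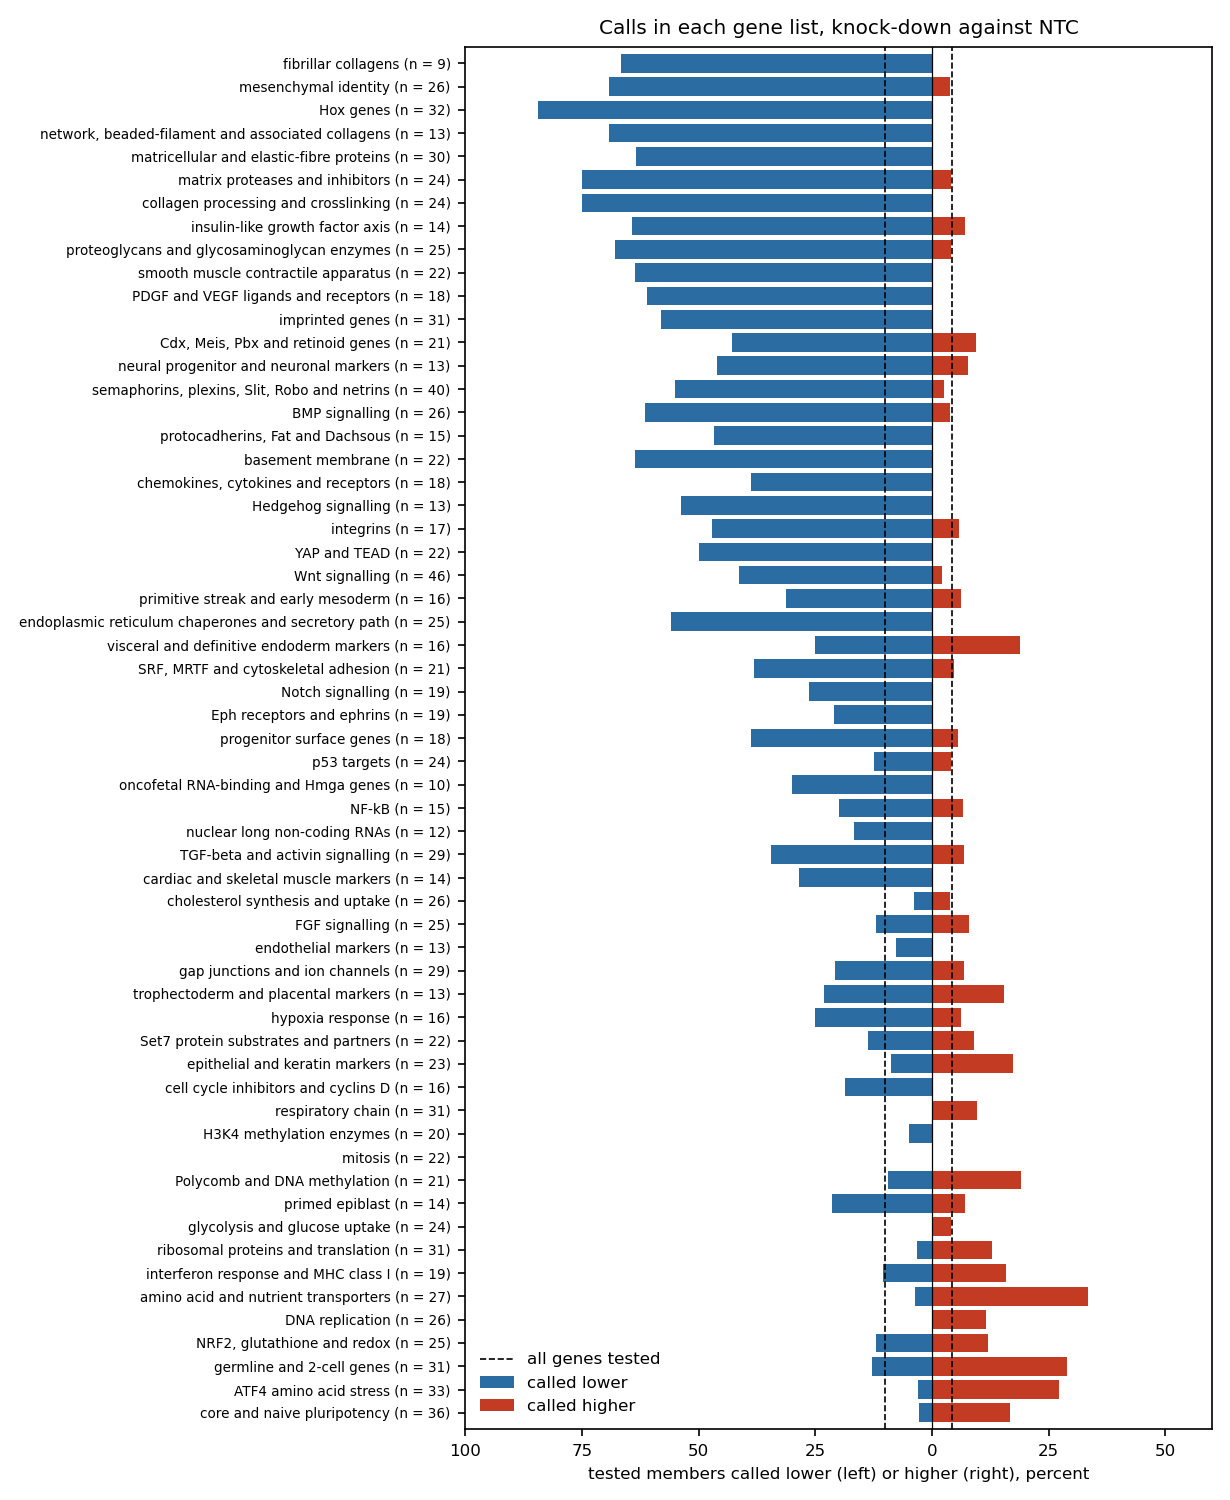
Percent of tested members called lower (blue, left) or higher (red, right) in each gene list with at least 9 tested members, ordered by median change with the lowest at the top; dashed lines mark all genes tested (10.1% lower and 4.25% higher). Matrix, mesenchymal and Hox lists stand at the top, and the pluripotency, ATF4 and germline lists at the bottom.

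The untreated Sca1 libraries offered a control without virus, although their replicates lay further apart than those of NTC (chi-square per degree of freedom of 36.87 against 1.501). A ribosomal RNA row enters this value, at 0.462% of counts in untreated replicate 1 and 12% in replicate 2. The median chi-square of a gene was 1.83 in these libraries, against 0.602 in NTC and 0.62 in the knock-down. Against the untreated Sca1 libraries, 1025 genes were higher and 1381 lower, so 42.6% of calls were higher. In the lists above, 6 fibrillar collagens, 17 matricellular and elastic-fibre genes, 19 genes of mesenchymal identity, 12 contractile genes and 22 Hox genes were lower in this comparison, against 6, 19, 18, 14 and 27 with NTC. The knock-down libraries are shared by both comparisons, and these counts do not say that the members are the same. Fewer genes were lower in the basement membrane list (4 against 14) and in the endoplasmic reticulum list (4 against 14). Summed levels of the basement membrane list were 6463 and 7327 CPM in untreated Sca1 cells and 7769 and 7401 CPM in the knock-down. With NTC they were 11666 and 11012 CPM. For fibrillar collagens the untreated cells lay between the groups, at 886 and 978 CPM against 161 and 137 (knock-down) and 2142 and 2040 (NTC). Of the 260 called genes named in the text, 206 were called in the same direction, 38 kept their direction and did not pass, and 16 turned. Direction turned for Fn1, Col4a1, Col4a2, Agrn, Hspa5, Hyou1, Pdgfra, Notch2, Piezo1, Igf1r, Fat1, Fgfr4, Slc38a4, Cdx1, Ddit4 and Eomes. Among the 38, the rises of Atf4 and L1td1 no longer passed (adjusted p = 0.166 and 0.0739).

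Some of these calls were lost when an NTC or knock-down library was left out, and the highest adjusted p of each (edgeR) stands in parentheses. Falls lost whichever of the 4 libraries was left out were those of Cnn1 (0.123), Dsp (0.235), Eif4a1 (0.217), Fat1 (0.317), Gata4 (0.126), Igf1r (0.116), Khdc3 (0.34), Slc38a4 (0.306), Suv39h1 (0.19), Tgfb1 (0.14), Vldlr (0.339) and Zscan4c (0.351). Rises lost in the same way, with a highest adjusted p under 0.2, were those of Alpl (0.18), Apoe (0.174), Cbx7 (0.0744), Cdx1 (0.169), Cox7a1 (0.115), Cyc1 (0.155), Ddit4 (0.187), Dnmt3l (0.114), Dppa4 (0.189), Gpt2 (0.155), Id4 (0.152), Nupr1 (0.176), Pfkm (0.124), Rpl30 (0.172), Suz12 (0.19), Sycp1 (0.183) and Tubb3 (0.195). Rises lost in the same way with a higher value were those of Cat (0.291), Cdc6 (0.237), Cldn4 (0.37), Dscc1 (0.274), Eed (0.35), Etv4 (0.228), Etv5 (0.216), Htra1 (0.204), Itgb7 (0.314), Klf10 (0.327), Klf2 (0.367), Lefty2 (0.208), Lima1 (0.202), Mcm4 (0.232), Ncl (0.265), Rpl8 (0.205), Sirt1 (0.431), Sod2 (0.264), Sox2 (0.263), Sqle (0.283) and Trf (0.317). Except without knock-down replicate 1, the call was lost for Eomes (0.312), Nt5e (0.129), Piezo1 (0.108), Prdm1 (0.21), Rab25 (0.312), Sdc4 (0.105) and Stat3 (0.231). Except without NTC replicate 2, the call was lost for Fgfr4 (0.25), Hoxb1 (0.0947), Hyou1 (0.0802), Slc1a4 (0.174), Trp53 (0.0904) and Zscan4d (0.1). Except without NTC replicate 1, the call was lost for Spry1 (0.133) and Tcstv1 (0.102). Leaving out NTC replicate 1, and likewise knock-down replicate 2, ended the call of Bmp4 (0.144), Hand1 (0.152) and Hormad2 (0.111). Leaving out NTC replicate 1, and likewise knock-down replicate 1, ended the call of Acta1 (0.105) and Ntn1 (0.105). Leaving out NTC replicate 2, and likewise knock-down replicate 1, ended the call of Zfy1 (0.0867). Only without knock-down replicate 2 was it lost for Col4a1 (0.0726), Cth (0.0715), Fn1 (0.084), Id1 (0.0597), Lamb1 (0.0536) and Notch3 (0.0525). Only without knock-down replicate 1 was it lost for Col6a2 (0.055). Only without NTC replicate 2 was it lost for Them6 (0.0508). For the other called genes named here the call held without each of the 4 libraries.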

How the data were processed

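Poly(A) RNA from 8 libraries was sequenced on a Genome Analyzer IIx, per the labels' protocols. The authors deposited a matrix of read counts with 29614 RefSeq transcript rows (26257 coding, 3357 non-coding). BWA 0.5.9, SAMtools 0.1.17 and edgeR 0.19 are named in the submitters' processing notes; for the build, the annotation release, the counting program and the use of strand, nothing is stated in the labels or file header. Symbols came from RefSeq for 28981 rows and from GENCODE for 177, while 456 rows are named by accession. Where a gene had several rows, the row of highest total stood for it (23483 genes). Identical rows of 1 gene (2062 genes) show that reads were assigned to every isoform, and reads shared between genes cannot be told apart.

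The comparison was fitted on all 8 libraries in 4 groups of 2, with edgeR 4.0.16 (R 4.3.3): TMM factors, filterByExpr (13966 genes kept), a robust quasi-likelihood test with 4 residual degrees of freedom before moderation and a common dispersion of 0.0133, and Benjamini-Hochberg adjustment at 0.05. SE is the log2 fold change divided by the square root of F. Summed levels and medians describe lists, without a test. In simulated counts for 13679 genes the fit recovered 20.9% of 1.5-fold, 71.2% of 2-fold and 93.8% of 4-fold changes, with 5 unchanged genes called. The simulation gave every gene the dispersion of 0.0133 and no group difference apart from the changed genes, so its rates need not hold for the real counts. Intervals on counts are exact at 95% and cover counting error only. The ribosomal RNA row NR_046233 took 0.403% to 0.526% of counts in NTC and 1.13% to 1.62% in the knock-down, and it was kept. It took 0.462% and 12% in the untreated Sca1 replicates and 0.725% and 11.5% in the stem cell replicates.

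Named genes were the genes checked by design (Setd7, Ly6a, Pou5f1, Nanog, Acta2, Tagln), the 30 largest called changes in each direction with at least 20 CPM in the higher group, the first 3 members of each of 61 lists and up to 6 called members per list and direction. Some genes that fit this rule are not reported here. The members, lists and rule were chosen with earlier results of these data known. Alternatives were other scaling, DESeq2 1.42.0, other filters, other sets of libraries, a replicate block, a 1.5-fold threshold, untreated Sca1 cells as control, summed transcript rows, and, chosen after the data were seen, leaving out the ribosomal RNA row or chromosomes 15, 6 and Y.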

Additional observations from a re-analysis of the deposited data

How the results depend on the processing

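Setd7 kept its direction and its call under every alternative run. Of 260 called genes named here, none changed direction apart from the comparison with untreated Sca1 cells, 235 stayed called in DESeq2 and 214 when libraries were scaled by totals alone. Genes called higher numbered 594, and 259 with totals alone, 372 in DESeq2, 1982 with only the NTC and knock-down libraries fitted, 41 against a 1.5-fold threshold and 1025 against untreated Sca1 cells. Genes called lower numbered 1404, and 903 in DESeq2, 2434 with only those libraries and 556 against 1.5-fold. Over 2-fold, 113 were higher, and 61 in DESeq2, 188 with only those libraries, 39 against 1.5-fold and 232 against untreated Sca1 cells. Leaving out each of the 8 libraries in turn gave 111 to 1034 higher and 537 to 1793 lower, and over 2-fold 42 to 139 higher and 464 to 860 lower. The causes of these moves were not tested.

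Replicate 1 deviated together across NTC and knock-down with r = 0.183 over 10390 genes, and the labels also give replicate 1 of both groups library code 12 and replicate 2 of both code 34, which replicate 1 of the untreated groups carries too. The labels do not say what a code marks, so with 2 pairs the pairing is not established. With a replicate block 1054 genes were higher over all 8 libraries, and 2533 higher and 2808 lower with the block in those 4 libraries alone, 203 of the higher over 2-fold; the block ended no call of a named gene.

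Against untreated Sca1 cells the log2 change turned for Agrn (0.193), Cdh1 (0.229), Cdx1 (-0.0206), Cdx2 (0.0409), Col4a1 (0.0871), Col4a2 (0.00918), Ddit3 (0.428), Ddit4 (-0.11), Dnmt1 (0.117), Eomes (-0.0662), Epcam (-0.0434), Fat1 (0.362), Fgfr4 (0.161), Fn1 (0.336), Gli1 (0.0959), Hspa5 (0.0167), Hyou1 (0.17), Igf1r (0.0284), Kmt2a (0.455), Mki67 (0.044), Mrtfa (-0.0326), Notch2 (0.191), Otx2 (-0.0868), Pdgfra (0.281), Piezo1 (0.233), Ptch1 (0.266), Slc38a4 (0.024), T (-0.203) and Top2a (-0.00863). Of these, Agrn, Cdx1, Col4a1, Col4a2, Ddit4, Eomes, Fat1, Fgfr4, Fn1, Hspa5, Hyou1, Igf1r, Notch2, Pdgfra, Piezo1 and Slc38a4 had been called. Values near 0 that were not called turned for Cdx2 with RLE factors (0.0105) and in DESeq2 (0.0112), and without 1 library for Axin2 (-0.00576 to 0.244), Cdkn1a (-0.0688 to 0.0429), Cdx2 (-0.0503 to 0.0558), Ddit3 (-0.293 to 0.167), Epcam (-0.0102 to 0.0625) and Mrtfa (-0.0605 to 0.189), given as the range over the leave-outs.

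With 2 libraries a group and 2790736 to 4406728 counts in each, the fit missed most changes of 1.5-fold in the simulation, which used 1 dispersion for all genes. Genes called higher in low counts rest on few reads. Whether replicates came from separate transductions is not stated, and 1 shRNA sequence was used, so effects of the sequence other than on Setd7 cannot be told apart from those of its loss. The shifts of chromosomes 15, 6 and Y against NTC run with the knock-down in the same way. Transcripts per cell and cell composition were not measured.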

Other observations

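Surface genes that mark vascular and stromal progenitors were lower in 7 of 18 cases, and 1 was higher, where 10.1% of all genes were lower and 4.25% higher. Mcam, the adhesion molecule CD146 of perivascular cells, stood at 98.3 and 89.8 against 26.3 and 28.6 CPM (-1.77 ± 0.14, edgeR adjusted p = 6.63e-08, n = 2 per group). Cd24a stood at 73.7 and 76.2 against 34.3 and 47.04 CPM and Cd109 at 17.5 and 18.9 against 3.85 and 6.59 CPM, and both fell. Of 19 Eph receptors and ephrins 4 fell, led by the ligand Efna5 (from 31.7 and 27.9 to 5.604 and 4.18 CPM) and the receptor Ephb4 (from 112 and 105 to 47.98 and 40.9 CPM), the partner of ephrin-B2 in veins. Efnb2, that ephrin, stood at 34.98 and 31.7 against 24.2 and 26.8 CPM and did not pass (adjusted p = 0.301).

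Of 29 gap junction and channel genes 6 fell and 2 rose, with a median of -0.02. Among the falls were the stretch-activated channel Piezo1 at 356 and 356 against 248 and 233 CPM and Piezo2 at 17.02 and 16.05 against 5.604 and 6.81 CPM. Gja1, the connexin of smooth muscle and many other cells, stood at 485 and 477 against 497 and 486 CPM (adjusted p = 0.896). Of 19 interferon and antigen presentation genes 3 rose and 2 fell, where 4.25% of all genes rose and 10.1% fell. Oas1a (from 4.96 and 7.36 to 11.2 and 18.5 CPM), Ifitm3 (from 93.8 and 104 to 135 and 139 CPM) and the RNA sensor Ddx58 (from 28.8 and 34.3 to 42.4 and 48.1 CPM) rose, and Tap1 (from 29.3 and 19.8 to 16.5 and 11.7 CPM) and B2m (from 30.3 and 22.96 to 15.4 and 15.4 CPM), which serve MHC class I, fell. In the p53 target list 3 of 24 fell, Trp53 itself included, and 1 rose (median -0.24), near the shares over all genes. At an unadjusted p under 0.05, 9 were lower. Its first members did not pass, with Cdkn1a at 223 and 230.5 against 234 and 216 CPM (adjusted p = 0.967) and Mdm2 at 186 and 178 against 151 and 159 CPM (adjusted p = 0.236). Malat1, a nuclear non-coding RNA, stood at 404 and 479 against 747 and 665 CPM and did not pass (adjusted p = 0.549). In every gene named here that passed, both knock-down libraries lay outside the range of the NTC libraries. This held for every called gene and for 64% of all genes tested, so it adds nothing to the calls. The calls of Ifitm3, Ddx58, Oas1a, Piezo1, Piezo2, Tap1 and B2m were lost when at least 1 NTC or knock-down library was left out, with a highest adjusted p (edgeR) between 0.0906 for Piezo2 and 0.405 for Tap1.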
